A study of Mus musculus with 20 samples.

Results

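The genotype effect described here is the one shared by 2 stages of medullary thymic epithelial cells (mTEC), the stages labelled mTEClo and mTEChi. The 6 cHyper libraries were set against the 6 WT libraries with the stage as an additive factor, and each stage was also tested on its own. A gene was called where its Benjamini-Hochberg adjusted p in edgeR's quasi-likelihood test was under 0.05. It was termed agreeing where the additive model called it and both stages called it separately with the same sign. Of 51810 genes in the deposited table, 28932 passed the filter on low counts and were tested, and 272 of these (0.94%) were agreeing, 212 higher in cHyper (0.733%) and 60 lower (0.207%). No mTEClo library held a fragment of 931 of the genes tested, which therefore could not agree.

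Medullary thymic epithelial cells display proteins of other tissues to developing T cells, so that self-reactive T cells are removed or diverted. As a general rule mTEChi carry more MHC class II and CD80 and include the cells that express Aire, the regulator of many tissue-restricted genes, while mTEClo are a mixture of precursors and post-Aire cells. Trp53 is a transcription factor that drives genes of cell cycle arrest, apoptosis, DNA repair and metabolism, and Mdm2 and Mdm4 hold it in check.

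RNA was measured in bulk in 4 groups of 3 libraries each, 2 of WT cells (mTEClo and mTEChi) and 2 of cHyper cells (mTEClo and mTEChi). All came from mice of 4 to 5 weeks, whose thymic stroma was digested, enriched for EpCAM+ cells on beads and sorted at 75000 mTEC per sample. Both genotypes carry the prefix P53 in the labels, and the sources used here do not give the allele behind cHyper, any driver that limits it to a cell type, or the sort gates. Nothing in the labels says that the replicates are separate animals, so the spread behind each p-value is that among these libraries and may be technical.

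Levels are given as CPM (counts per M fragments, M for mega) after TMM scaling, in the order of replicates 1, 2 and 3. Library totals ran from 22.02 to 47.93 M fragments. Replicate 3 of every group was the shallowest, at 25.31 M or less, and differed from the others in sex-linked RNA, with Xist at 989 to 1760 CPM against 3.66 to 8.57 CPM, and 0 Ddx3y fragments against at least 2745. These differences were balanced over the 4 groups. Aire stood at 11.3, 16.2 and 15.4 CPM in WT mTEClo and at 1918, 1923 and 1918 CPM in WT mTEChi, and Cd80 at 4.65, 9.03 and 7.32 against 191, 216 and 192 CPM. Krt14, a keratin of immature mTEC, ran the other way, at 2140, 2390 and 2084 against 243, 258 and 222.5 CPM, so the WT stages differed in these genes in the direction their labels give.

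The additive model called 1996 genes (6.9% of those tested), 1126 higher (3.89%) and 870 lower (3.01%) in cHyper. The split between directions depended on the scaling: 56.4% of calls were higher with TMM, 44.5% with DESeq2 size factors and 42.2% with library totals, while the median log2 change over all genes moved by -0.037 and -0.0442. Of the 1996 calls, 272 were also called in both stages, 997 in mTEClo only, 159 in mTEChi only and 568 in neither stage alone. The fitted sign was the same in both stages for 1981 of them and opposite for 15, a split that the additive call itself favours. Calls of one stage were shared by the other to unequal degrees. Of 1310 genes called higher in mTEClo (4.53%), 16.2% were also called higher in mTEChi, and these made up 47% of the 451 genes called higher there (1.56%). Of 1341 genes called lower in mTEClo (4.64%), 4.47% were also called lower in mTEChi, which was 49.6% of the 121 genes called lower there (0.418%).

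**Figure D1:**
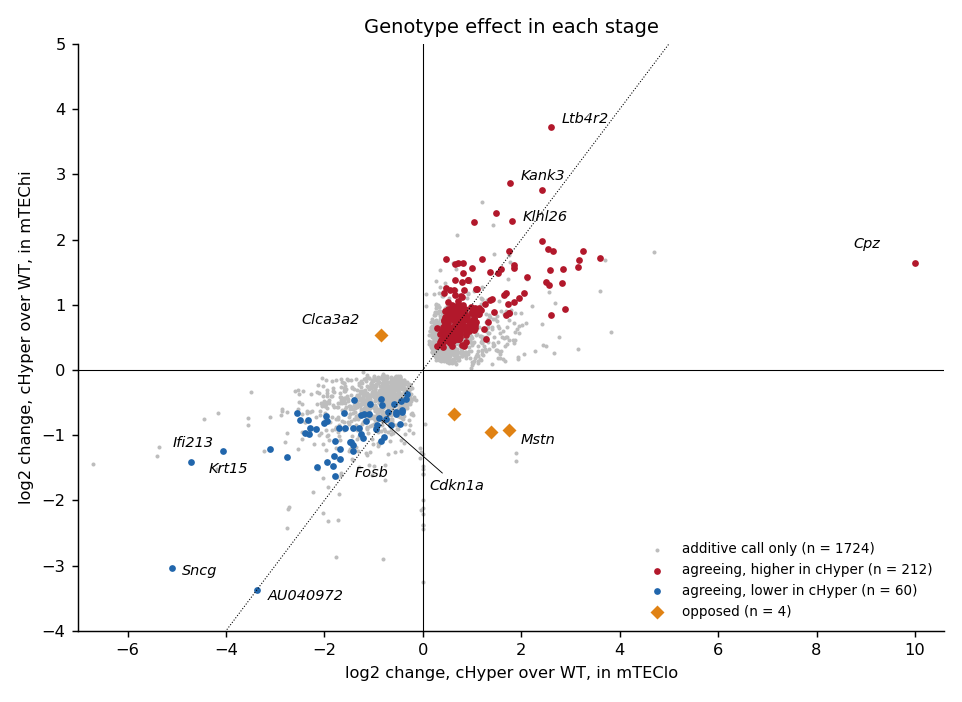
Log2 change of cHyper over WT in mTEClo (x axis) against that in mTEChi (y axis), 1 point per gene called by the additive model or opposed; the dotted line marks equal change. The 212 agreeing genes higher in cHyper and the 60 lower ones fill opposite quadrants, Cpz stands far to the right with a log2 change of 10.00 in mTEClo and 1.65 in mTEChi, and 48 of the 60 lower genes have the larger change in mTEClo.

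In size of change the agreeing genes differed between the directions, but they were chosen by calls on these same changes. The lower genes also had the lower median level (18.7 against 42.4 CPM), and the difference in size was not tested. The higher genes had a median additive log2 change of 0.78, with 0.75 in mTEClo and 0.81 in mTEChi, and 61 of the 212 changed at least 2-fold. The lower genes had a median of -1.13, with -1.43 in mTEClo and -0.89 in mTEChi, and 35 of the 60 changed at least 2-fold. Over all genes tested the median additive change was -0.01. All 3 cHyper libraries lay beyond all 3 WT libraries in both stages for 210 of the 212 higher genes and all 60 lower ones, against 3.99% and 2.51% of all genes tested, a separation that the calls themselves favour. The last gene inside the rule was Egr1, whose largest adjusted p (edgeR) was 0.0496 in mTEChi, and the nearest gene outside was Plxna3 at 0.0501. With 1 library left out, 117 of the 272 agreeing genes still agreed in all 12 fits, 93 higher and 24 lower. Of genes named below, Ei24 and Ces2g agreed in 1 of the 12 fits, Slc38a4 in 2, Egr1 and Itm2c in 3, Cryab and Twsg1 in 4 and AU040972 in 5. Gtse1 and Irf4 agreed in 6, and Bax, Mx1, Aim2, Cbr2, Glul and Gnb1l in 7.

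Agreeing genes were more often protein coding and more abundant than the genes tested: 91.5% of the higher and 91.4% of the lower ones with a known biotype were protein coding, against 65.8% of all, and their median levels were 42.4 and 18.7 CPM against 6.08 CPM. The power to call a gene in each stage rises with its level, so this contrast was not tested. They were spread over the genome, from 0.525% of genes tested on chromosome 18 to 2.01% on chromosome 16. Within 5 Mb of Trp53 on chromosome 11, 2 of 232 genes tested agreed (0.862%).

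Trp53 itself was examined first, with its regulators. Trp53 (ENSMUSG00000059552, chromosome 11, 69580359 to 69591873 on mm10) stood at 137, 136 and 138 CPM in WT mTEClo and 166, 178 and 154 in cHyper mTEClo. In mTEChi it stood at 98.0, 99.5 and 107 CPM in WT and 135, 129 and 138 in cHyper. Every cHyper library was above every WT library of its stage, and the additive rise was 1.27-fold (log2 0.34 ± 0.06, SE, n = 6 against 6 libraries, edgeR adjusted p = 0.00446). The additive fit took all libraries as independent, although same-numbered libraries of the stages deviated together. Trp53 was not agreeing, because mTEClo alone gave an edgeR adjusted p of 0.0553 beside 0.020 in mTEChi.

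Mdm4, a paralog of Mdm2 that binds and inhibits Trp53, was the agreeing member of the 16 feedback and family genes tested. It stood at 273, 243 and 229 CPM in WT mTEClo and 178, 161 and 174 in cHyper, and at 224, 231 and 206 against 142, 141 and 131 in mTEChi. The groups did not overlap in either stage, and Mdm4 fell by 0.61 on the log2 scale (SE 0.07, edgeR adjusted p = 0.000109). Mdm2, the ubiquitin ligase for Trp53 and a target of it, showed an additive log2 change of -0.08 ± 0.08 (edgeR adjusted p = 0.578), with 70.0, 68.3 and 69.0 CPM in WT mTEClo and 78.2, 66.8 and 76.1 in cHyper. In mTEChi Mdm2 had 139, 130 and 122 CPM in WT against 115, 107 and 107 in cHyper. Of the same 16 genes, 5 were called higher by the additive model, against 3.89% of all genes tested. Ccng1, a cyclin G and Trp53 target, rose by 0.55 (edgeR adjusted p = 0.00677), Trp53inp1, a stress-induced cofactor, by 0.46 (adjusted p = 0.00363) and Chek2, a kinase of the DNA damage checkpoint, by 0.75 (adjusted p = 0.0162), all additive log2 changes, besides Trp53 and Trp53inp2. The Trp53inp2 call (edgeR adjusted p = 0.0262) remained without WT mTEClo replicate 1, cHyper mTEClo replicate 3, WT mTEChi replicate 1 or cHyper mTEChi replicate 2 and ended without any other single library, and it also ended with library totals (0.0593). Without replicate 3 of every group the adjusted p was 0.0527 for Ccng1, 0.1 for Chek2 and 0.149 for Trp53inp2.

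Among the arrest targets of Trp53, Cdkn1a moved against the other agreeing members. Cdkn1a (chromosome 17, 29090976 to 29100727), the cyclin-dependent kinase inhibitor p21, stood at 48.7, 66.9 and 54.7 CPM in WT mTEClo and 32.1, 28.5 and 31.7 in cHyper. In mTEChi it stood at 162, 182 and 152 CPM in WT and 110, 92.5 and 96.3 in cHyper. The cHyper libraries were below all WT libraries in both stages, an additive fall of 1.75-fold (log2 -0.81 ± 0.09, edgeR adjusted p = 7.38e-05) that was agreeing in all 12 fits with 1 library left out. Zfp365, a zinc finger gene of genome stability, rose 2.26-fold, from 15.7, 13.6 and 12.8 to 33.8, 31.0 and 25.8 CPM in mTEClo and from 9.30, 6.54 and 6.42 to 19.3, 16.6 and 17.2 CPM in mTEChi (edgeR adjusted p = 2.46e-05). Gtse1, a microtubule-associated protein that restrains Trp53 in G2, rose 2.04-fold (edgeR adjusted p = 0.000649). Of the 13 arrest genes tested, 2 were thus called higher and 2 lower, against 3.89% and 3.01% of all genes tested. The second lower gene was Plk3 (edgeR adjusted p = 0.0459), whose call remained without WT mTEClo replicate 1 or the third cHyper mTEClo library and ended without any other single library. The adjusted p of Plk3 was 0.1 with no filter on low counts and 0.0977 without replicate 3 of every group.

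Of 20 Trp53 targets that act in cell death, 10 were called higher, 1 was called lower and 9 were not called, with a median additive log2 change of 0.43 against -0.01 for all genes tested, and 3 were agreeing. Of all genes tested, 3.89% were called higher and 3.01% lower. Apaf1, the scaffold of the apoptosome, stood at 54.9, 52.4 and 45.0 CPM in WT mTEClo and 115, 106 and 99.9 in cHyper, and at 53.3, 55.2 and 46.1 against 90.9, 86.8 and 80.8 in mTEChi. The groups were apart in both stages, and Apaf1 rose 1.88-fold (log2 0.91 ± 0.09, edgeR adjusted p = 2.39e-05). Bax, which permeabilises the mitochondrial outer membrane, stood at 41.1, 51.7 and 30.3 CPM in WT mTEClo against 77.3, 70.8 and 76.2 in cHyper, and at 63.5, 65.9 and 40.4 against 110, 129 and 85.6 CPM in mTEChi. Bax rose 1.86-fold (edgeR adjusted p = 0.00184), with replicate 3 the lowest WT library in each stage. Ei24, a membrane protein induced by Trp53, rose 1.40-fold (edgeR adjusted p = 0.000801), but its mTEChi change was near the threshold (adjusted p = 0.0466).

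Of the other called death genes, Zmat3 and Steap3 passed the test of the difference between stages. Zmat3, an RNA-binding protein, rose 2.38-fold in mTEClo (edgeR adjusted p = 1.16e-06) and showed 1.29-fold in mTEChi, short of the threshold (adjusted p = 0.0556), and the stages differed (adjusted p = 0.0026). Perp, a desmosomal protein, rose 1.65-fold in mTEChi (edgeR adjusted p = 0.00589) and not by the test in mTEClo (1.19-fold, adjusted p = 0.232). Aen, a nuclease, Pmaip1 (Noxa), Traf4, Triap1 and Steap3 made up the rest, and the lower gene was Casp1, a caspase of inflammation. Perp, Triap1, Steap3 and Casp1 are named to complete the list and were chosen after their values were seen. Steap3 (edgeR adjusted p = 0.0421) was not called with DESeq2 size factors (0.0594) or library totals (0.0657), and its call remained only without WT mTEChi replicate 3 or cHyper mTEChi replicate 2. Casp1 (edgeR adjusted p = 0.0257) lost its call without replicate 1 or 2 of either mTEClo group, or without the third cHyper mTEChi library. Without replicate 3 of every group the adjusted p was 0.0845 for Pmaip1, 0.0767 for Triap1, 0.0553 for Steap3 and 0.138 for Casp1.

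The repair and metabolism targets held the largest shared rises among the Trp53 lists. Of 28 tested, 10 were called higher and 3 lower (median additive log2 change 0.21), against 3.89% and 3.01% of all genes tested, and 6 were agreeing, all higher. Klhl26, a kelch-domain protein, had the smallest additive p of all genes tested: it stood at 28.7, 31.3 and 28.4 CPM in WT mTEClo and 104, 112 and 95.2 in cHyper, and at 11.2, 11.2 and 10.8 against 52.4, 55.5 and 53 in mTEChi. The 4 groups were far apart relative to their spread, with a rise of 4.12-fold (log2 2.04 ± 0.09, edgeR adjusted p = 2.59e-08). Cpt1c, a carnitine palmitoyltransferase of the endoplasmic reticulum, rose from 12.8, 14.7 and 12.3 to 48.5, 44.6 and 51.0 CPM in mTEClo and from 10.3, 8.79 and 11.1 to 28.9, 31.1 and 29.2 CPM in mTEChi (3.27-fold, edgeR adjusted p = 1.07e-07). Its antisense neighbour 6530437J22Rik overlaps it and agreed as well (additive log2 1.78), and the sources used here do not say how strand was used in counting.

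Sulf2, which removes sulfate groups from heparan sulfate outside the cell, stood at 67.6, 54.3 and 38.9 CPM in WT mTEClo and 259, 273 and 168 in cHyper, and at 37.5, 36.6 and 39.5 against 113, 103 and 89.8 in mTEChi. It rose 3.43-fold (edgeR adjusted p = 2.39e-05). Polk, the translesion DNA polymerase kappa, rose 1.77-fold (edgeR adjusted p = 0.000198). Kank3 and Ltb4r2 completed the 6 agreeing members and are described with the largest changes. Of the higher genes that did not agree, Dcxr (a dicarbonyl and xylulose reductase) rose in mTEClo by 1.99 on the log2 scale and Pltp (phospholipid transfer protein), Ercc5 (a nuclease of nucleotide excision repair) and Abhd4 rose in mTEChi by 1.27, 0.76 and 0.70. The 3 lower genes were Ephx1, Ak1 and Ddb2, and none of these was called without WT mTEClo replicate 2, WT mTEChi replicate 1 or cHyper mTEChi replicate 2, while 1 was called without replicate 1 or 3 of WT mTEClo or replicate 1 or 2 of cHyper mTEClo. These 4 lists were drawn up with earlier results of these data known, so their counts are a description.

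**Figure D2:**
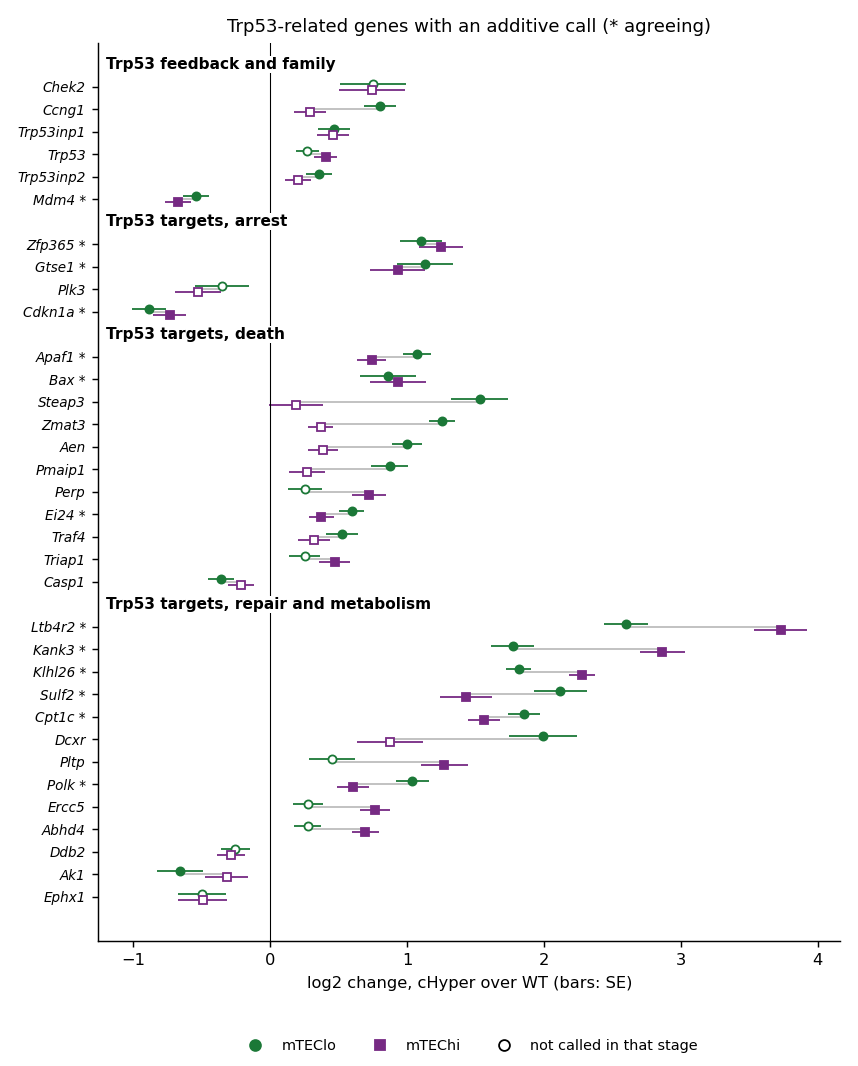
Log2 change of cHyper over WT (x axis, bars are SE) in mTEClo (circles) and mTEChi (squares) for every gene of the 4 Trp53 lists called by the additive model; filled symbols were called in that stage and an asterisk marks agreeing genes. Of the agreeing genes, Ltb4r2, Kank3, Klhl26, Sulf2, Cpt1c and Zfp365 lie above a log2 change of 1 in both stages, whereas Cdkn1a and Mdm4 lie below 0 in both.

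With predicted genes, pseudogenes and receptor segments left out, the 12 largest agreeing rises under the naming rule were Cpz, Ltb4r2, Rai2, Ltb4r1, Ppp1r36, Gipc2, Kank3, Arhgef33, Mgmt, Hmgcll1, Rgs14 and Klhl26. Ltb4r2 and Ltb4r1 encode the low- and high-affinity receptors for leukotriene B4 and lie next to each other on chromosome 14 (55761428 to 55765138 and 55765962 to 55768494). Ltb4r2 stood at 9.21, 12.3 and 8.30 CPM in WT mTEClo and 63.4, 63.0 and 55.0 in cHyper, and at 1.19, 1.19 and 0.758 against 12.7, 14.9 and 15.3 in mTEChi. Ltb4r1 stood at 4.42, 7.15 and 5.35 CPM against 30.1, 31.6 and 29.1 in mTEClo and at 1.04, 0.974 and 1.12 against 6.47, 6.09 and 8.76 in mTEChi. Neither gene overlapped between genotypes in a stage, and the additive rises were 8.42-fold and 5.93-fold (edgeR adjusted p = 8.12e-07 and 1.73e-07).

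Cpz, a secreted carboxypeptidase that can bind Wnt proteins, was nearly silent in WT mTEClo. It had 0, 3 and 1 fragments there, and 1766, 1866 and 1042 in cHyper mTEClo, where its level was 40.4, 42.9 and 42.4 CPM. Summed over the libraries this was a ratio of 1100 (95% exact interval 429 to 4040, counting error only). In mTEChi it stood at 6.47, 6.84 and 6.75 CPM in WT and 19.6, 20 and 23.4 in cHyper, a 3.13-fold rise. The additive log2 change of 3.83 (edgeR adjusted p = 0.0174) is 1 value fitted to both stages, whose own log2 changes were 10.00 in mTEClo and 1.65 in mTEChi. Without replicate 3 of every group its adjusted p was 0.0829, although Cpz stayed called in each stage in all 12 fits with 1 library left out.

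Mgmt, which removes alkyl groups from guanine in DNA, stood at 1.98, 1.9 and 2.25 CPM in WT mTEClo and 12.8, 11.1 and 14.2 in cHyper, and at 3.99, 4.24 and 5.38 against 13.6, 18.8 and 15.8 in mTEChi. It rose 4.63-fold (edgeR adjusted p = 3.38e-06). Kank3, an ankyrin-repeat protein of the actin cortex, stood at 15.1, 14.7 and 17.2 against 59.8, 58.0 and 41.5 CPM in mTEClo and at 4.44, 4.09 and 5.48 against 34.3, 37.1 and 29.8 CPM in mTEChi (4.90-fold, edgeR adjusted p = 6.48e-06). Both genes were apart in every stage.

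Rgs14, which limits G protein signalling, stood at 18.9, 15.7 and 15.7 against 130, 128 and 102 CPM in mTEClo and at 26.7, 29.3 and 33.1 against 81.4, 96.2 and 82.7 CPM in mTEChi (4.55-fold, edgeR adjusted p = 2.32e-05). Gipc2, a PDZ-domain adaptor, rose 5.20-fold and the guanine nucleotide exchange factor Arhgef33 4.86-fold. Hmgcll1, a 3-hydroxymethylglutaryl-CoA lyase, rose 4.58-fold, Rai2 6.33-fold and Ppp1r36, a regulatory subunit of protein phosphatase 1, 5.85-fold, the last pair from WT levels between 0.236 and 1.06 CPM. The edgeR adjusted p of these 5 genes ran from 2.45e-05 for Hmgcll1 and 4.47e-05 for Gipc2 to 0.00038 for Ppp1r36, and the additive call remained in all 12 fits with 1 library left out. Rai2 was agreeing in 10 of those fits and Ppp1r36 in 9.

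Among the 6 most abundant agreeing genes, 4 rose, and the others, Egr1 and Fosb, are described with the immediate-early genes. Cbr2, a carbonyl reductase, stood at 199, 266 and 190 CPM in WT mTEClo and 850, 710 and 545 in cHyper, and at 190, 158 and 141 against 308, 337 and 228 in mTEChi (2.40-fold, edgeR adjusted p = 0.000649). Glul, glutamine synthetase, stood at 1056, 886.3 and 779 CPM in WT mTEClo and 1453, 1526 and 1040 in cHyper, groups that overlapped, and at 127, 134 and 110 against 216, 246 and 250 CPM in mTEChi, where they did not. It rose 1.68-fold (edgeR adjusted p = 0.00179). Twsg1, which binds bone morphogenetic proteins outside the cell, rose 1.46-fold and the membrane protein Itm2c 1.37-fold (edgeR adjusted p = 0.00239 and 0.0021). The changes of these abundant genes were thus smaller than those of the largest rises.

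**Figure D3:**
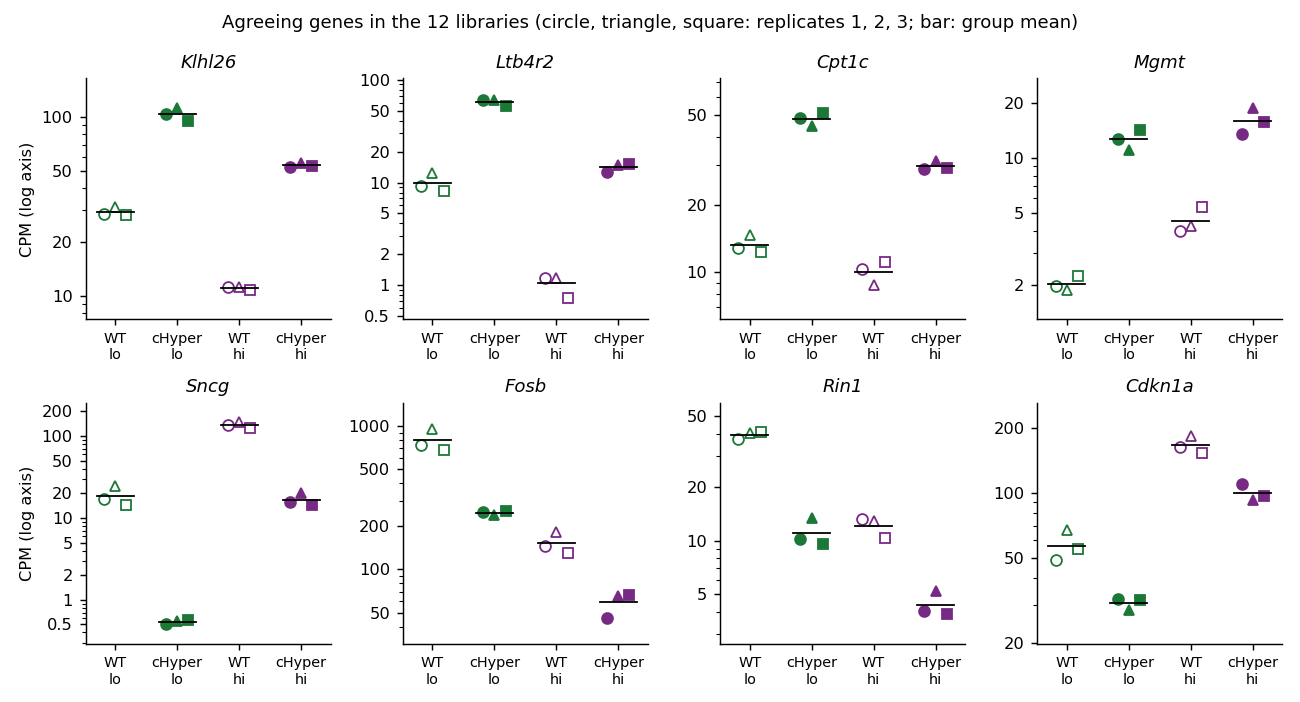
CPM (log axis, its range differs between panels) of 8 agreeing genes in the 12 libraries; open symbols are WT, filled symbols cHyper, and bars are group means. In each panel the 3 cHyper libraries of a stage lie on one side of the 3 WT libraries, above for Klhl26, Ltb4r2, Cpt1c and Mgmt and below for Sncg, Fosb, Rin1 and Cdkn1a.

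Some agreeing genes stood side by side on the chromosome. In 13 cases 2 agreeing genes were neighbours in gene order, and in all 13 both moved the same way. Most agreeing genes were higher (212 of 272), and the share of such pairs over all genes tested was not computed, so the count is a description. Ltb4r2 with Ltb4r1, Snx20 with Nod2 and Ces2f with Ces2g were the pairs of protein-coding genes without overlap that were looked at after their values were seen. Nod2, a sensor of bacterial peptidoglycan, stood at 22.0, 28 and 23.6 against 34.0, 35.1 and 35.4 CPM in mTEClo and at 22.1, 23.2 and 19.3 against 42.9, 41.8 and 49.2 CPM in mTEChi (1.71-fold, edgeR adjusted p = 0.000631). Its neighbour Snx20, a sorting nexin, rose 4.02-fold (edgeR adjusted p = 5.06e-05), from 3.29, 4.85 and 5.01 to 20.4, 27.5 and 21.8 CPM in mTEChi. The carboxylesterases Ces2f and Ces2g rose 1.75-fold and 1.26-fold, and as members of 1 family they may share reads. Other neighbouring pairs overlap, such as Gipc2 with D630002J18Rik and Gnb1l with Rtl10, and their reads may not be separable.

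With the same classes left out, the 12 largest agreeing falls under that rule were Sncg, AU040972, Ifi213, Krt15, Matn1, Anxa8, Mansc4, Rin1, Mx1, Shisa4, Spock2 and Enho. Sncg (chromosome 14, 34370274 to 34374789) encodes gamma-synuclein, a small protein best known from neurons. It stood at 16.8, 24.6 and 14.2 CPM in WT mTEClo and 0.503, 0.552 and 0.570 in cHyper, and at 135, 147 and 126 against 15.6, 19.9 and 14.2 in mTEChi. The additive fall was 13.3-fold (log2 -3.73 ± 0.29, edgeR adjusted p = 5.12e-06), with a larger fall in mTEClo (34.5-fold) than in mTEChi (8.19-fold).

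Krt15, a keratin of basal epithelial cells, stood at 21.8, 31.8 and 31.5 CPM in WT mTEClo and 2.01, 0.989 and 2.24 in cHyper, and at 34.0, 30 and 34.9 against 13.2, 14.2 and 14.3 in mTEChi (5.64-fold lower, edgeR adjusted p = 0.0027). In bulk RNA such as this, fewer cells of a type and less RNA per cell cannot be told apart. Anxa8, a calcium-dependent phospholipid-binding protein, stood at 103, 106 and 94.3 against 13.0, 17.0 and 14.9 CPM in mTEClo and at 20.8, 17.2 and 16.0 against 6.80, 5.93 and 8.97 CPM in mTEChi (4.19-fold lower, edgeR adjusted p = 7.73e-05). Matn1, a cartilage matrix protein, fell 4.37-fold and Spock2, a matrix proteoglycan, 3.04-fold (edgeR adjusted p = 0.000658 and 0.00316). All 4 genes were agreeing in every one of the 12 fits with 1 library left out.

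Rin1, a Ras effector that activates Rab5, stood at 37.4, 40.2 and 40.7 CPM in WT mTEClo and 10.2, 13.5 and 9.57 in cHyper, and at 13.2, 12.9 and 10.4 against 4.02, 5.26 and 3.87 in mTEChi. It fell 3.15-fold, with near-equal changes in the stages (log2 -1.82 and -1.47, edgeR adjusted p of the additive model 3.38e-06). Mansc4 fell 3.26-fold, Shisa4 3.06-fold and Enho, which encodes the secreted peptide adropin, 3.01-fold (edgeR adjusted p = 2.39e-05, 0.00038 and 0.000629). AU040972, a transcript inside the Nf1 locus, was low throughout, with 48, 35 and 13 fragments in WT mTEChi against 1, 5 and 2 in cHyper.

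Immediate-early genes, which growth factor and stress signals switch on within minutes, were lower as a group. Of 23 tested, 14 were called lower and 0 higher, against 3.01% and 3.89% of all genes tested. Their median additive log2 change was -0.52, with -0.83 in mTEClo and -0.25 in mTEChi, and 4 of them agreed. With single libraries left out, 10 to 14 were called lower. Fosb, a subunit of AP-1, stood at 739, 958 and 683 CPM in WT mTEClo and 252, 238 and 254 in cHyper, and at 146, 181 and 131 against 46.0, 65.8 and 66.0 in mTEChi. The genotypes did not overlap in either stage, and Fosb fell 2.87-fold (log2 -1.52 ± 0.12, edgeR adjusted p = 6.48e-06).

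The other agreeing members were Egr1, Klf2 and Dusp1. Egr1, a zinc finger transcription factor, stood at 1423, 1429 and 1021 CPM in WT mTEClo and 575, 529.8 and 509 in cHyper, and at 269, 298 and 203 against 133, 156 and 187 in mTEChi, where the groups came closest. It fell 1.97-fold (edgeR adjusted p = 0.000851). Klf2, a Krüppel-like factor, fell 2.15-fold, from 27.7, 28.1 and 21.4 to 9.78, 9.22 and 12.5 CPM in mTEClo and from 14.5, 11.4 and 12.6 to 5.95, 6.41 and 8.51 CPM in mTEChi (edgeR adjusted p = 0.000187). Dusp1, a phosphatase that turns off MAP kinases, fell 2.19-fold (edgeR adjusted p = 0.000649) and more in mTEClo than in mTEChi (3.02-fold against 1.57-fold, adjusted p of the difference 0.0159). Fos, the partner of Jun in AP-1, fell by 1.08 on the additive log2 scale (edgeR adjusted p = 0.00139) with an adjusted p of 0.0699 in mTEChi. Handling of cells can induce these genes, and the sources used here give no time from digestion to lysis per library, so its part was not tested. Among 15 heat shock chaperones, another group that handling can induce, 1 was called higher and 1 lower. Against 3.89% and 3.01% of all genes tested, 15 genes are too few to tell from the background. Cryab was called higher and agreed (1.54-fold, edgeR adjusted p = 0.00199). Hspb1 was called lower (1.87-fold, adjusted p = 0.0289) but not without WT mTEClo replicate 2 or 3 or any 1 of the 3 cHyper mTEClo libraries, nor without replicate 3 of every group (0.0908).

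Interferon-stimulated genes were lower in cHyper mostly through mTEClo. Of 32 effector genes tested, 24 were called lower and 0 higher by the additive model, against 3.01% and 3.89% of all genes tested. Their median additive log2 change was -0.70, but the medians were -1.23 in mTEClo and -0.32 in mTEChi. In mTEClo 30 were called lower and in mTEChi 2, against 4.64% and 0.418% of all genes tested. For 18 the stages differed by the test of the difference, against 2.06% of all genes tested. The count of additive calls fell to 15 without cHyper mTEClo replicate 1 and to 14 without replicate 2. The 2 agreeing members were Mx1 and Oas3. Mx1, a dynamin-like GTPase that blocks viruses, stood at 82.8, 120 and 79.4 CPM in WT mTEClo and 13.9, 20.2 and 16.1 in cHyper, and at 49.2, 48.9 and 40.5 against 26.1, 29.3 and 25.8 in mTEChi (3.08-fold lower, edgeR adjusted p = 0.00215). Oas3, an oligoadenylate synthase, stood at 110, 178 and 127 against 24.7, 30.1 and 28 CPM in mTEClo and at 35.9, 38.1 and 32.5 against 20.8, 20.2 and 21.7 CPM in mTEChi (2.93-fold lower, edgeR adjusted p = 0.00142). Both were lower in all 6 cHyper libraries than in the WT libraries of the same stage.

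In mTEClo the 32 effectors summed to 6430 to 8450 CPM in WT and 3180 to 3340 in cHyper, groups that did not overlap. In mTEChi the sums were 2180 to 2530 and 1950 to 2140 CPM. Irf7, the regulator that amplifies type I interferon, stood at 474, 610 and 516 CPM in WT mTEClo and 80.5, 112 and 82.7 in cHyper, and at 65.2, 70.0 and 53.1 against 36.6, 43.1 and 45.0 in mTEChi. It fell 5.82-fold in mTEClo, and its 1.51-fold difference in mTEChi missed the threshold (edgeR adjusted p = 0.0553) although the 3 libraries of each genotype were apart. Irf4, a regulator better known from lymphocytes, moved the other way and agreed (1.83-fold higher, edgeR adjusted p = 0.00112), from 20.1, 22.7 and 19.5 to 44.8, 53.5 and 54.5 CPM in mTEClo and from 123, 127 and 115 to 166, 161 and 178 CPM in mTEChi. Of 18 interferon-inducible GTPases, 9 were called lower (against 3.01% of all genes tested), 0 higher and 0 agreeing. In mTEClo alone 16 of these GTPases were lower and in mTEChi 0, against 4.64% and 0.418% of all genes tested. The Tgtp1 and Tgtp2 copies among them are near identical and may share reads.

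PYHIN genes, a cluster of DNA-binding proteins on chromosome 1 induced by interferon, held an agreeing gene in each direction. Of 13 tested, 8 were called lower and 1 higher, against 3.01% and 3.89% of all genes tested. The lower count was 5 without any 1 of the 3 cHyper mTEClo libraries. Ifi213 stood at 20.5, 23.0 and 22.3 CPM in WT mTEClo and 0.571, 1.20 and 0.692 in cHyper, and at 2.12, 2.06 and 1.37 against 0.549, 0.992 and 0.535 in mTEChi (9.39-fold lower, edgeR adjusted p = 0.00187). Aim2, the sensor of cytosolic DNA that builds an inflammasome, rose 1.74-fold, from 6.26, 5.09 and 5.11 to 11.3, 9.66 and 12.1 CPM in mTEClo and from 18.7, 19.1 and 22.0 to 32.6, 30.3 and 29.4 CPM in mTEChi (edgeR adjusted p = 0.00032). The PYHIN copies resemble each other and may share reads.

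**Figure D4:**
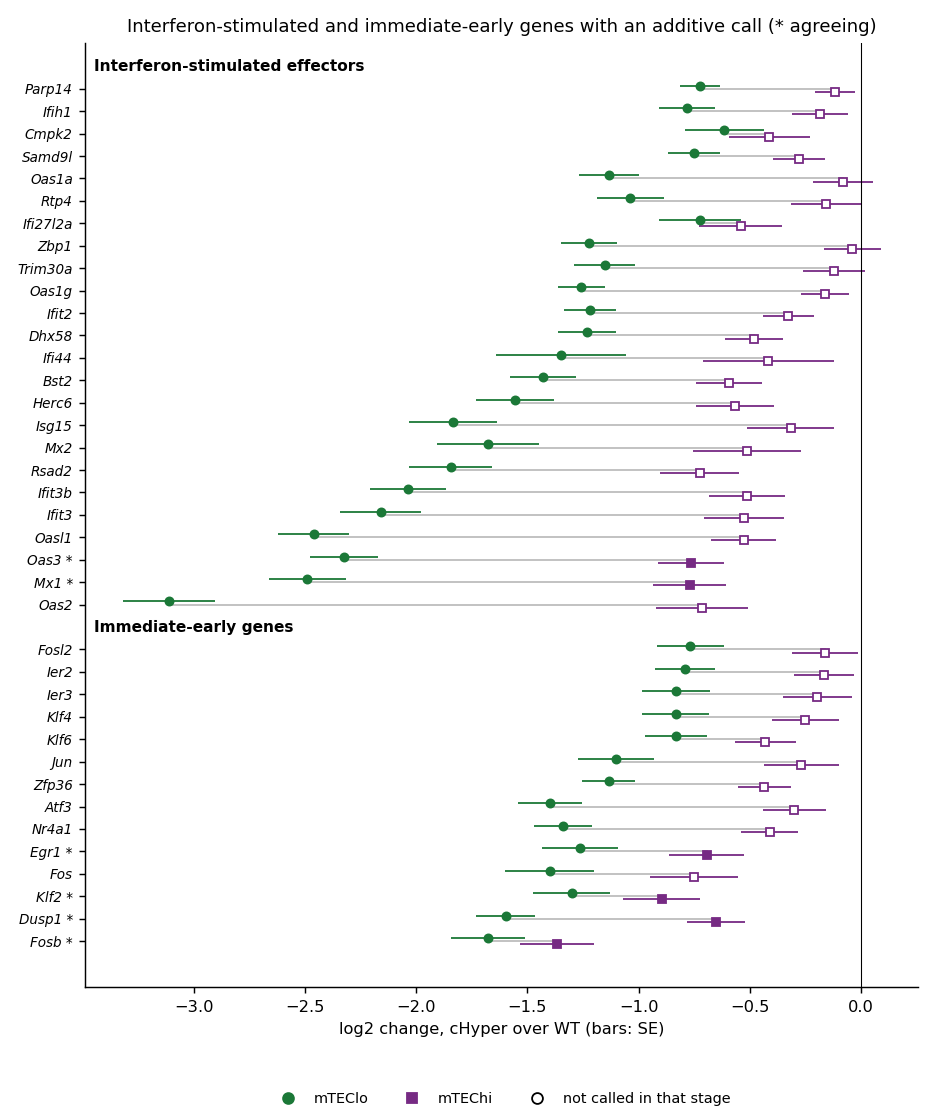
Log2 change of cHyper over WT (x axis, bars are SE) in mTEClo (circles) and mTEChi (squares) for the 24 interferon-stimulated effectors and 14 immediate-early genes called by the additive model; filled symbols were called in that stage and an asterisk marks agreeing genes. Every circle is filled and lies left of its square, and filled squares are limited to Oas3 and Mx1 in the first list and to Egr1, Klf2, Dusp1 and Fosb in the second.

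Promoters were examined because the genes that moved together include known target groups. RefSeq windows from 250 bases before to 50 after a gene's start (GRCm38.p6) were matched by symbol and position to 16451 of the genes tested, among them 164 agreeing higher and 42 agreeing lower genes. Windows were searched on both strands for the Trp53 half-site consensus, which reads the same on both strands, and for the interferon-stimulated response element (ISRE, a pair of GAAA runs with any 2 bases between). The half-site was found in 8.92% of all genes with a window, in 16.5% of the agreeing higher ones (27 genes) and in 19% of the agreeing lower ones (8 genes). Over all additive calls its share was 13.8% of the higher and 9.29% of the lower genes, the latter near the background, so the share of agreeing lower genes rests on few genes. The response element was found in 3.67% of all, in 3.05% of the agreeing higher and in 4.76% of the agreeing lower genes (2 genes, Ifi213 and Oas3), in 8.11% of all additive calls lower and in 56.5% of the interferon-stimulated effectors with a window (13 of 23). The cyclic AMP response element, also searched, was found in 2.84% of all, 1.22% of the agreeing higher and 2.38% of the agreeing lower genes. A match is a description of letters and does not show binding.

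Half-site windows of 2 agreeing genes that rose, Cpz and Bax, and of Cdkn1a, which fell, are shown together with the response elements of both agreeing lower genes that hold one. All lie outside every exon of GENCODE vM21, as do half-site windows of other agreeing genes, so those shown are examples. Each reads 5′ to 3′ on the gene's strand, before the RefSeq start, with 1 match in capitals. The Cdkn1a window also holds another half-site match, left in lower case, which begins 73 bases before the start. Cpz is at chr5:35525752-35525811 (minus strand), Bax at chr7:45467065-45467124 (minus), Cdkn1a at chr17:29090903-29090962 (plus), Ifi213 at chr1:173599311-173599370 (minus) and Oas3 at chr5:120777700-120777759 (minus).
Cpz: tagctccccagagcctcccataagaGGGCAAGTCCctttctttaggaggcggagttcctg
Bax: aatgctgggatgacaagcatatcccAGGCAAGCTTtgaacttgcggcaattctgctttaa
Cdkn1a: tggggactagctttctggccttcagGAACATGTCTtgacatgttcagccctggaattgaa
Ifi213: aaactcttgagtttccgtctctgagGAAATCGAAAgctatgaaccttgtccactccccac
Oas3: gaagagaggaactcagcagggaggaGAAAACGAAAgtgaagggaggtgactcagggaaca
The window of Cdkn1a, which fell in both stages, thus holds matches to the same consensus as those of Cpz and Bax, which rose in both.

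Of 26 genes that mark the mTEC stages, 1 agreed (3.85%, against 0.94% of all genes tested). Of 11 immature mTEC genes, Krt15 agreed and fell, while Krt14 was called higher (edgeR adjusted p = 0.0448) on a mTEChi rise of 2.25-fold from 243, 258 and 222.5 to 479, 576.5 and 574 CPM, with a mTEClo difference of 1.05-fold. That Krt14 call remained without replicate 2 of WT mTEClo or replicate 3 of cHyper mTEClo and ended without any other single library, and the adjusted p was 0.101 without replicate 3 of every group. Of 15 mature mTEC genes, 0 agreed. Ccl22, a chemokine of mature mTEC, was called higher (2.84-fold, edgeR adjusted p = 0.00966, and 0.0767 without replicate 3 of every group), and Cd80 lower (1.5-fold, adjusted p = 0.0445), a call that remained only without the first library of WT mTEClo, WT mTEChi or cHyper mTEChi or the third of WT mTEChi and ended with limma-voom (0.0722). Aire rose in mTEClo, to 38.6, 51.4 and 43.6 CPM (3.12-fold, edgeR adjusted p = 2.39e-05), and in cHyper mTEChi it stood at 1770, 1885 and 1281 CPM (1.17-fold lower, adjusted p = 0.548). The additive model did not call Aire (log2 0.68, edgeR adjusted p = 0.164), whereas the mean of both stages' contrasts did (adjusted p = 0.00123). Fezf2, which drives other tissue-restricted genes, had an additive log2 change of -0.12 (edgeR adjusted p = 0.505).

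Of 16 genes of RANK, CD40 and NF-kB signalling, edgeR, DESeq2 and limma-voom each called 0 (2 had an edgeR p under 0.05 before adjustment), and the replicate block gave 1. With 6.9% of all genes tested called by edgeR, 16 genes are too few to tell from the background. The title of the series names chromatin accessibility. Of 28 chromatin remodeler genes 1 was called, a share near the 3.89% of all genes tested that were called higher. This was Smarcc1, a BAF subunit (1.20-fold higher, edgeR adjusted p = 0.0406). That call ended with DESeq2 size factors (0.0574) and library totals (0.0586) and remained only without cHyper mTEClo replicate 3, WT mTEChi replicate 2 or cHyper mTEChi replicate 2. Of 19 BCL2 family genes 4 were called higher (against 3.89% of all genes tested), Bax, Bcl2a1b, Pmaip1 and Bok, and 9 with the replicate block. Bok (edgeR adjusted p = 0.0187) lost its call without WT mTEClo replicate 2 or 3, and without replicate 3 of every group the adjusted p was 0.0725 for Bok and 0.0586 for Bcl2a1b.

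Mimetic mTEC, which resemble cells of other tissues, were followed with 9 marker lists, and 1 of their 107 members tested agreed (0.935%), a share at the background of 0.94%. This was Bpifa1, a secreted protein of airway epithelium, which rose 3.04-fold, from 14.4, 18.4 and 18.7 to 48.2, 68.4 and 96.2 CPM in mTEClo and from 93.6, 96.0 and 74.9 to 195, 190 and 213 CPM in mTEChi (edgeR adjusted p = 0.000109). All cHyper libraries exceeded all WT libraries of their stage. Of 16 tuft cell genes, 4 were called lower by the additive model, against 3.01% of all genes tested. In mTEClo tested by itself 8 were called lower and in mTEChi 0, against 4.64% and 0.418% of all genes tested. Pou2f3, the transcription factor that specifies tuft cells, was called higher in mTEChi (log2 0.66, edgeR adjusted p = 0.0218, named after its value was seen). The additive count was 1 without WT mTEClo replicate 3 and 2 without cHyper mTEClo replicate 2, WT mTEChi replicate 1 or cHyper mTEChi replicate 2. Il25, the tuft cell cytokine, was called in all 12 fits with 1 library left out (2.44-fold lower, edgeR adjusted p = 0.00701), and the summed tuft level was 1090 to 1450 CPM in WT mTEClo, 607 to 927 in cHyper mTEClo, 228 to 303 in WT mTEChi and 225 to 314 in cHyper mTEChi. Of 14 enterocyte and hepatocyte genes, 4 were called lower, against 3.01% of all genes tested. Vil1, villin of the brush border (log2 -0.9988, edgeR adjusted p = 0.0188), was called in all 12 fits with 1 library left out, and Hnf4g, Hnf4a and Cdhr2 in 7, 3 and 2.

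Markers of cells outside the epithelium were detected in every group. None of the 6 lists for thymocytes, myeloid, B, fibroblast, endothelial and erythroid cells held an agreeing gene (0 of 54 tested, against 0.94% of all genes, too few to tell from the background), and no gene of these lists was at 0 in a whole group. Of 16 thymocyte genes, edgeR, DESeq2 and limma-voom each called 0 (4 had an edgeR p under 0.05 before adjustment), and 1 was called without WT mTEClo replicate 2. Their summed level was 22.8 to 46.7 CPM in WT mTEClo, 34.4 to 66.9 in cHyper mTEClo, 150 to 174 in WT mTEChi and 164 to 184 in cHyper mTEChi. Myeloid and dendritic markers summed to 33.3 to 38.2 CPM in WT mTEClo and 31.3 to 49.2 in cHyper, and to 528 to 708 against 509 to 579 CPM in mTEChi, the highest sums of these lists. Fibroblast markers summed to 39.8 to 45.0 CPM in WT mTEClo and 79.3 to 126 in cHyper mTEClo, but to 200 to 312 and 186 to 189 CPM in mTEChi. Erythroid markers summed to 12.6 to 21.3 CPM in WT mTEClo against 4.38 to 9.89 in cHyper, and to 51.8 to 70.9 against 48.7 to 51.0 CPM in mTEChi, with 0 of 6 called by edgeR (3 before adjustment), 3 lower by DESeq2 and 1 by limma-voom. Each of the myeloid, fibroblast and endothelial lists had 1 gene called lower, C1qb, Pdgfrb and Tek, calls that remained in 2, 6 and 2 of the 12 fits with 1 library left out. The part of these cells in the agreeing changes was not tested.

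**Figure D5:**
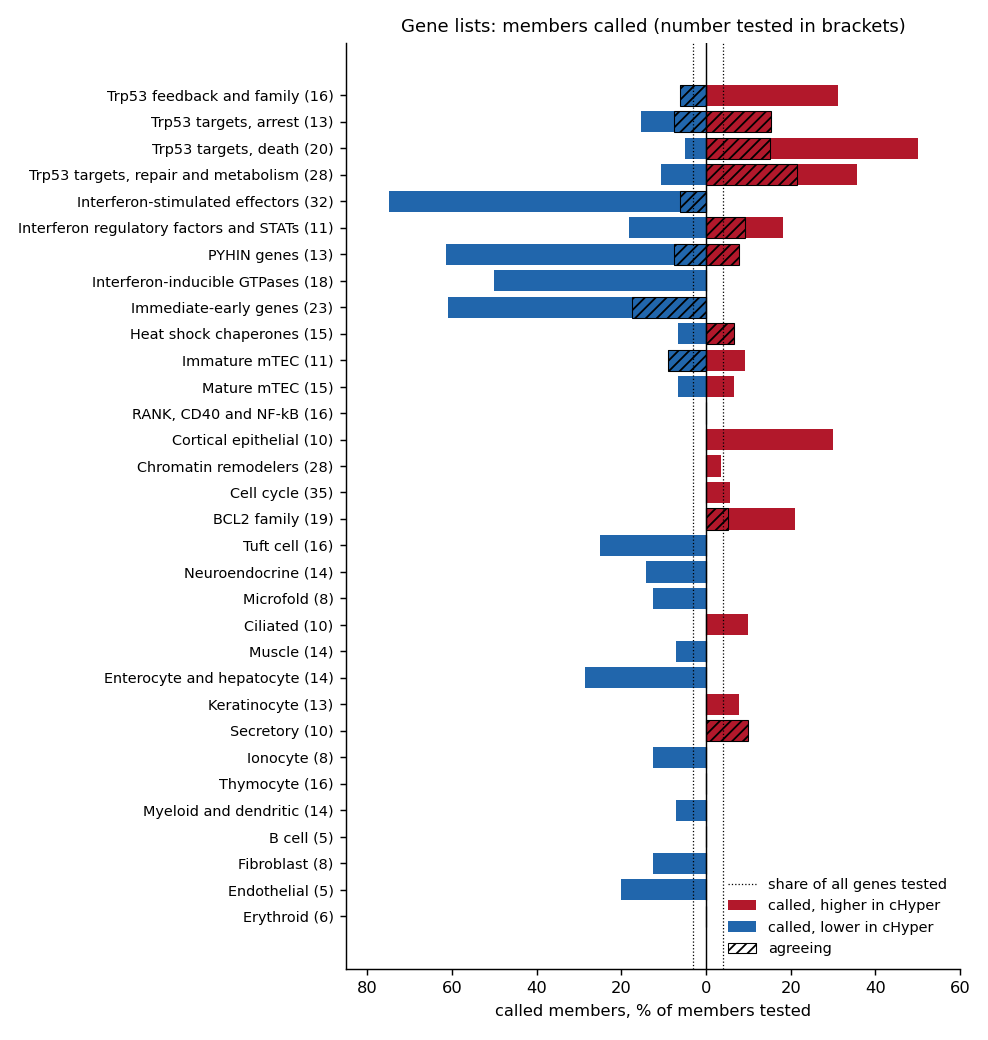
Share of each gene list called by the additive model (x axis, % of the members tested, numbers tested in brackets), with genes higher in cHyper to the right and lower to the left; hatching marks agreeing members, and dotted lines mark 3.89% and 3.01%, the shares of all genes tested. The Trp53 death list reaches furthest to the right, and the interferon-stimulated, PYHIN and immediate-early lists reach furthest to the left.

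The size of the change differed between stages for 37 of the 272 agreeing genes by the test of the difference, which called 595 genes in all (2.06%). Of the 22 higher ones, 11 changed more in mTEClo and 11 more in mTEChi. All 15 lower ones changed more in mTEClo. Larger in mTEClo by the greatest margin were Cpz, Ifi213 and Krt15, and larger in mTEChi were Kank3, Ltb4r2 and Slc38a4, an amino acid transporter that rose 3.25-fold in mTEChi and 1.39-fold in mTEClo. For 163 of the 272, the absolute log2 changes of the stages were within 1.5 times of each other.

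Opposed genes, called in each stage with opposite signs, numbered 4. Clca3a2, a secreted protein of the chloride channel accessory family, stood at 415, 450 and 403 CPM in WT mTEClo and 239, 221 and 244 in cHyper, and at 225, 189 and 177 against 316, 276 and 266 in mTEChi. The genotypes were apart in both stages, lower in one and higher in the other (adjusted p of the difference 0.000403, edgeR). Mstn, Nckap1l and Tnxb were higher in cHyper mTEClo and lower in cHyper mTEChi, from levels under 1 CPM in WT mTEClo. With single libraries left out the count of opposed genes ran from 1, without WT mTEChi replicate 2 or cHyper mTEChi replicate 2, to 7, without replicate 2 of WT mTEClo or replicate 3 of cHyper mTEClo.

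Signs in the third replicate were compared for genes chosen without it. With replicate 3 of every group left out, 947 genes were called by the additive model. Of these, 809 (85.4%) had the same sign in replicate 3 in both stages, and 9 the opposite sign in both, while 38.5% of all 29156 genes tested there had the same sign in both. Of 194 genes agreeing in replicates 1 and 2, 180 had that sign in replicate 3 in both stages. Replicate 3 also differed in depth and in sex-linked RNA, in both genotypes alike. Its mTEClo and mTEChi libraries deviated from their group means together (r = 0.379 in WT and 0.213 in cHyper), so the 2 stages are not independent. The 38.5% covers genes of all levels and is not a matched background.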

How the data were processed

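The values are raw counts of fragments per gene that the authors deposited for 12 libraries, with TPM columns that were not used. Per the labels' protocols, libraries were made with a TruSeq stranded mRNA kit and sequenced on a NovaSeq. Per the submitters' processing notes, mm10, TopHat2 2.1.1, SAMtools 1.9, featureCounts and Subread 2.0.1 were used, while the sources used here do not give the strand setting, annotation release or filters. The labels list 20 samples, because replicates 1 and 2 have 2 runs each, and the deposited columns hold 12. The 12 TPM columns were left out of all steps.

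Genes were filtered with filterByExpr, scaled by TMM and tested with edgeR 4.0.16 (quasi-likelihood, R 4.3.3) over all 12 libraries, with stage and genotype as additive terms (9 residual degrees of freedom). Group means (8 residual degrees of freedom) gave each stage and their difference. P-values were adjusted by Benjamini-Hochberg over all genes tested, with a threshold of 0.05. DESeq2 1.42.0, limma-voom 3.58.1, other scalings and filters, and fits leaving out libraries were alternatives.

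Named genes are the 12 largest rises and 12 largest falls among agreeing genes of at least 1 CPM with no overlap and a call in all 12 leave-one-out fits (leaving out predicted genes with Gm, Rik, LOC or clone names, pseudogenes and receptor segments), up to 6 called members of each Trp53 list and 4 of each other list by smallest p, opposed genes, the 6 most abundant agreeing genes, 3 per stage by size of the difference, and Trp53, Cdkn1a, Mdm2, Aire and Fezf2. Others are said to be chosen after their values were seen or complete a list. Members and the 33 gene lists were chosen with earlier results of these data known. Of 485 list genes, 2 were not matched. Same-numbered libraries deviated together: correlations of their deviations from the group means were 0.12 to 0.379 over 18 pairs (0.087 to 0.304 on autosomes), so the replicate number was also fitted as a block. With it, 432 genes agreed higher and 136 lower. A result for 1 list is not reported here.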

Additional observations from a re-analysis of the deposited data

Results flagged for a closer look

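The genotype effect differed between the stages for 595 genes by edgeR's test of the difference. Values are the log2 change in mTEChi minus that in mTEClo, and n is 3 libraries per group. Groups of 3 libraries are too small to single out 1 library.

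Among agreeing genes that rose, the change was larger in mTEClo for Cpz (-8.36), Rai2 (-1.89), Arhgef33 (-1.59), Gipc2 (-1.49), Rgs14 (-1.29) and Irf4 (-0.82). It was larger in mTEChi for Slc38a4 (1.22), Ltb4r2 (1.13) and Kank3 (1.09). Among agreeing genes that fell, every named difference was positive, which is a larger fall in mTEClo: Ifi213 (3.31), Krt15 (2.81), Sncg (2.07), Matn1 (1.899), Spock2 (1.895), Mx1 (1.72), Oas3 (1.56), Anxa8 (1.42), Shisa4 (1.39), Enho (1.33) and Dusp1 (0.94).

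Other named genes differed as well. Of the interferon lists these were Ifi204 (2.20), Irf7 (1.94), Rsad2 (1.12), Stat2 (0.83), Tgtp1 (0.70) and Tgtp2 (0.69). Of the Trp53 lists they were Zmat3 (-0.89) and Steap3 (-1.34), besides Eda2r (-4.17), a receptor of ectodysplasin. Hspb1 (1.53) and the neuroendocrine granule protein Scg2 (1.48) fell more in mTEClo. Krt14 (1.10), Kitl (-0.86) and Aire (-1.87) completed the epithelial genes. The opposed genes were Mstn (-2.67), Tnxb (-2.34), Nckap1l (-1.30) and Clca3a2 (1.39).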

How the results depend on the processing

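Leaving out 1 library gave 720 to 1097 additive calls higher and 480 to 836 lower (1126 and 870 with all), 139 to 224 agreeing higher and 29 to 80 lower (212 and 60), 1 to 7 opposed genes (4), 1783 to 2550 calls in mTEClo (2651), 296 to 678 in mTEChi (572) and 354 to 629 differences (595). Agreeing lower genes numbered 35 without WT mTEChi replicate 1 and 37, 29 and 34 without cHyper mTEChi replicates 1, 2 and 3, and agreeing higher genes 139 without cHyper mTEChi replicate 1. With the replicate block, additive calls higher were 1709, agreeing genes 432 and 136, opposed 22, mTEChi calls 1251 and differences 1186, and no named gene lost its call. All 212 and 60 agreeing genes met the same rule with the block and in DESeq2. Of them, 207 and 52 also met it with limma-voom, 185 and 60 with DESeq2 size factors and 179 and 60 with library totals. With only the compared groups in each stage's fit, 181 and 52 met it. Over all genes the rule gave 187 agreeing higher and 83 lower with DESeq2 size factors, and 180 and 86 with library totals. DESeq2 gave 2035 additive calls lower, 332 and 249 agreeing genes, 44 opposed, 1419 mTEChi calls and 1415 differences. Limma-voom gave 8 opposed genes and 862 mTEChi calls. With no filter on low counts 97 genes agreed lower, 17 were opposed and 1103 differed, and with a mean of at least 1 CPM 111 agreed lower and 9 were opposed. The mean of both stages' contrasts gave 1691 additive calls higher. Fits with only the compared groups gave 10 opposed genes and 1071 mTEChi calls. An unadjusted p under 0.05 in each stage gave 834 and 490 agreeing genes. Without replicate 3 of every group, 572 and 375 genes were called, 2 opposed, 312 in mTEChi and 282 by difference, with fewer and shallower libraries. The share of additive calls higher was 56.4%, against 41.4% at 1 CPM or more, 42.1% with DESeq2, 60.8% with the block and 56.6% with the mean of contrasts. DESeq2 called 15 interferon-inducible GTPases lower against 9. The uncalled additive log2 change turned positive for Mstn with DESeq2 (0.14) and the mean of contrasts (0.42), and for Tnxb with both (0.10 and 0.22). With 1 library left out it ran from -0.37 to 0.023 for Tnxb, positive without cHyper mTEChi replicate 3. The causes were not tested. Genes with few fragments limit precision, above all in mTEClo.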
